A study of Homo sapiens with 6 samples.

Results

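The genes described here encode the DNA sliding clamp PCNA, the subunits of the complexes that load it onto DNA and unload it, and the enzymes that join Okazaki fragments. They were chosen by symbol, and all 10 of them (PCNA, RFC1, RFC2, RFC3, RFC4, RFC5, CHTF18, ATAD5, FEN1 and LIG1) were found among the 16798 coding genes of the deposited table. Bulk RNA-seq was carried out in COV434 cells, a human line that the labels describe as granulosa cells (GCs). The 3 control samples are named as controls and carry no treatment tag of their own, and the 3 samples of the 4HC group were tagged as CTX-induced and received 4HC at 15 µM for 24 h. The note on the 4HC treatment is attached to all 6 samples alike, and the tags and titles decided the groups. 4HC is used as the active form of the alkylating agent cyclophosphamide (CTX), which itself needs conversion in the liver. All samples came from this 1 line, grown in DMEM with serum, and no other dose or time was analysed here.

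PCNA is a ring of identical subunits that encircles DNA and holds polymerases and many other proteins at the replication fork. Replication factor C, a pentamer of the large subunit RFC1 and the small subunits RFC2 to RFC5, opens the ring and closes it around DNA. CHTF18 and ATAD5 take the place of RFC1 in alternative complexes with the same small subunits, and the ATAD5 complex takes PCNA off DNA. On the lagging strand FEN1 cuts the displaced flap of each Okazaki fragment and LIG1, DNA ligase 1, seals the nick, both while bound to PCNA. PCNA is also known as a proliferation marker, as a platform for DNA repair and as a target of E2F factors and of p53.

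The expected counts, which are estimates of the reads from each gene, summed to 16133786 to 16702316 per sample. They were rounded, scaled by TMM to counts per 1000000 (CPM) and tested with edgeR's quasi-likelihood test over 12368 genes. A gene is called higher or lower below when its Benjamini-Hochberg adjusted p was under 0.05. The labels do not say whether the samples of a group were grown as separate cultures, so the p-values measure the spread between these samples, which may be technical. Of 12 granulosa markers, 11 were in the table and 9 had a mean under 1 CPM over the samples, among them FOXL2, FSHR and CYP19A1, so the defining markers of granulosa cells were at or near 0. AMH had 5.19 ± 1.37 CPM and HSD17B1 14.2 ± 1.91 CPM in control (SD, n = 3), and none of the 3 markers tested was called. Of 10 markers of other cell types, 5 were tested and none was called, and their summed level was 112 to 121 CPM in both groups, mostly from DCN and LUM.

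PCNA rose with 4HC, and so did all 3 large subunits, 3 of the 4 small subunits, FEN1 and LIG1. In all, 9 of the 10 genes were called higher, none was called lower, and RFC4 did not pass the test. For comparison, 19.2% of the 12368 genes tested were called higher and 17.1% lower. In 9 of the 10 genes all 4HC samples lay above all controls in CPM, against 23.4% of genes tested. Their median log2 fold change was 0.38, against 0.00 over all genes tested. PCNA was the only 1 of the 10 to reach a fold change of at least 2 with an unadjusted p under 0.05, a criterion met upward by 1.02% of genes tested. In bulk RNA, a change in the share of cells in a cell cycle phase cannot be told apart from a change in RNA per cell.

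**Figure D1:**
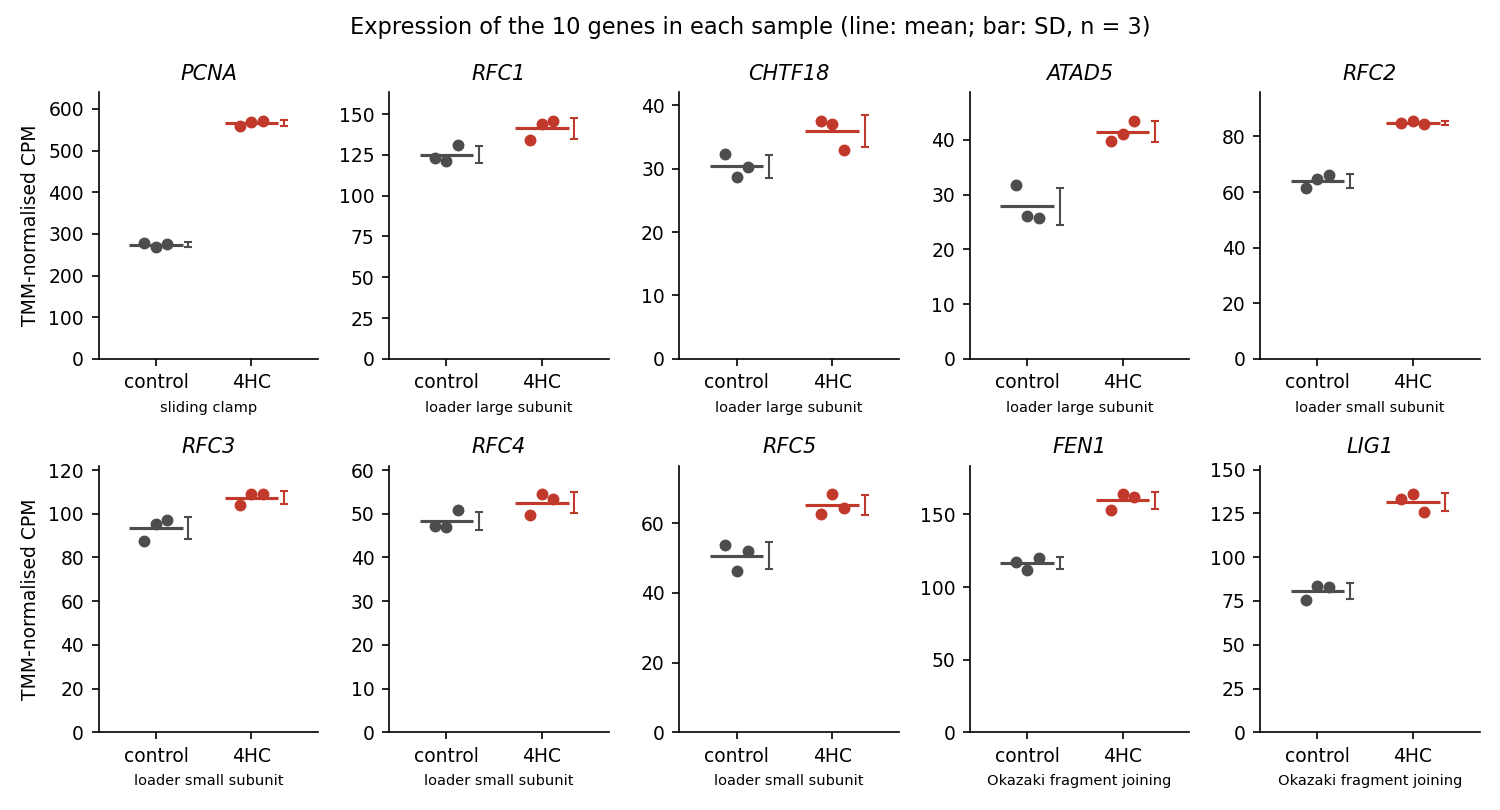
TMM-normalised CPM (vertical axis, from 0) of each of the 10 genes in the 3 control samples (grey) and the 3 samples treated with 4HC (red), with the group mean as a line and the SD as a bar. PCNA stands at 268 to 279 CPM in control and 559 to 572 CPM in 4HC, and RFC4 is the only gene of the 10 in which the points of the groups overlap.

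PCNA (NCBI Gene 5111) lies on the minus strand of chromosome 20 of GRCh38, from 5114953 to 5126622 in the deposited table. Its level was 279, 268 and 276 CPM in the 3 control samples and 559, 569 and 572 CPM in the 3 samples with 4HC. The samples of a group were within a few percent of each other, and the groups were far apart. The mean rose from 275 ± 5.97 to 567 ± 6.82 CPM (SD, n = 3 per group), 2.06-fold. This was 1.04 on the log2 scale, with a standard error (SE) of 0.03 and an adjusted p of 6.87e-32. Between 4354 and 9337 expected counts per sample stood behind these values.

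A rise of this size was uncommon among abundant genes. Of 2207 genes whose mean over the 6 samples reached 100 CPM, 5 at least doubled with an adjusted p under 0.05, a cut-off chosen after the values were seen. In descending order of log2 fold change these were CDKN1A (1.80), TP53I3 (1.57), FDXR (1.32), BTG2 (1.28) and PCNA (1.04). The other 4 are known targets of p53, the transcription factor activated by DNA damage.

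PCNA has 2 annotated start sites, and each gives a transcript with the same coding sequence. NM_002592 begins at the upstream end of the gene, and NM_182649 begins several kilobases inside it. The promoter windows of both starts are shown because the data separate their transcripts. They were read from RefSeq's GRCh38.p14 as windows of 250 bases before to 50 bases after the start, of which the stretch outside annotated exons is printed. Both stretches are written 5′ to 3′ on the minus strand. The first, at chr20:5126627-5126785, lies upstream of NM_002592, and the second, at chr20:5120027-5120208, lies upstream of NM_182649. Capitals mark CCAAT or its reverse complement, the box bound by NF-Y, and in the first stretch also GCGGGAAA, a match on the other strand to the E2F motif TTTNNCGC. In the second stretch capitals also mark GGACTTGTTC, which matches the p53 half-site consensus. No 2 of the marked matches overlap within a stretch.
PCNA upstream start: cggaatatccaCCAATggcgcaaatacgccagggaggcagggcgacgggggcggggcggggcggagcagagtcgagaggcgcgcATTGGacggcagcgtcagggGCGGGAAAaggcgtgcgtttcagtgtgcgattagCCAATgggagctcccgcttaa
PCNA downstream start: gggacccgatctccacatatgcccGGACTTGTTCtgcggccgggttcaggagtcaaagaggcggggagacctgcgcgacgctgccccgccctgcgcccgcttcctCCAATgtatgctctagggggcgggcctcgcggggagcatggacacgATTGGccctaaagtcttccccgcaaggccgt

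The upstream window held 3 CCAAT boxes, and its E2F match was at -59 to -52 from the start. In the downstream window there were 2 CCAAT boxes and the p53 half-site match, at -226 to -217, and no match to TTTNNCGC. Both strands were searched. Of 35116 promoter windows of the same length, 34.6% held CCAAT, 6.89% held TTTNNCGC and 6.63% held a p53 half-site match. A match describes letters only and is no evidence of binding.

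Nearly all PCNA reads, and the called rise, were assigned to the transcript of the downstream start. NM_182649 had 272, 262 and 269 CPM in control and 554, 560 and 566 CPM in 4HC, with no overlap between the groups. Its mean rose from 268 ± 4.82 to 560 ± 6.17 CPM (SD, n = 3), a log2 fold change of 1.06 (SE 0.02, adjusted p = 0.000196 over 42216 transcripts). NM_002592 was the minor transcript throughout. It had 9.94, 6.93 and 10.0 CPM in control and 10.5, 12.3 and 10.4 CPM in 4HC. Although these groups did not overlap, they nearly touched, and the log2 fold change of 0.30 did not pass the test (SE 0.20, adjusted p = 0.776).

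The share of NM_182649 in the expected counts of PCNA was 96.5%, 97.4% and 96.4% in control and 98.1%, 97.9% and 98.2% in 4HC. Every 4HC sample was above every control, by 1.29 percentage points between the means. The exact permutation test, two-sided, gave p = 0.1, the smallest value that 3 samples against 3 allow. The 2 transcripts share 1232 bases in GENCODE release 29, and 112 bases of NM_182649 and 127 bases of NM_002592 are their own, so the division of reads between them rests on few bases.

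**Figure D2:**
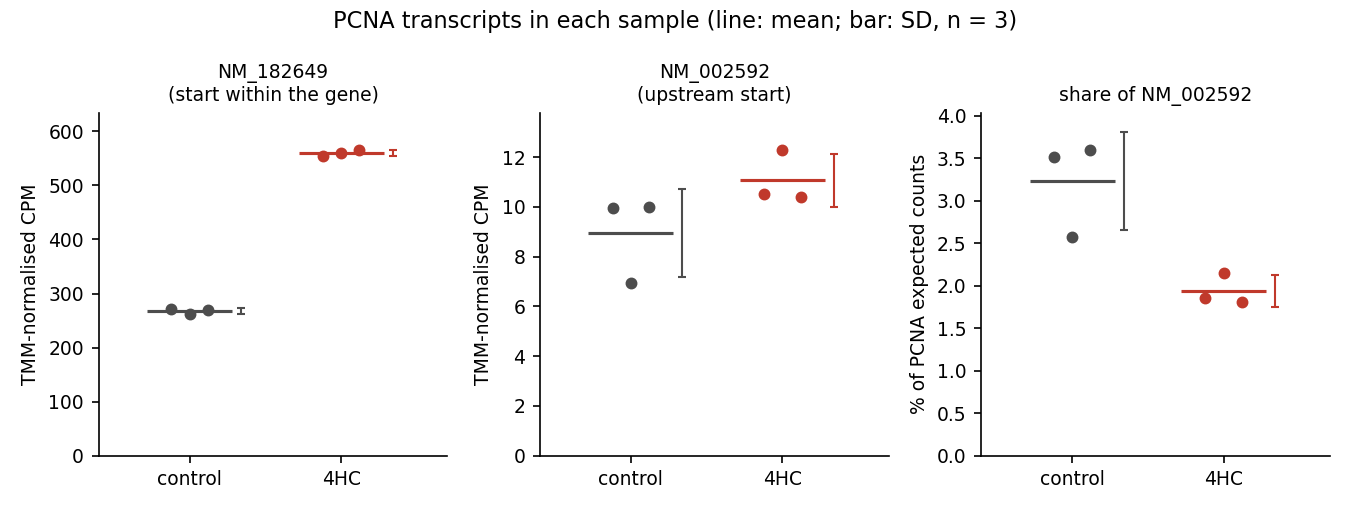
The left and middle panels plot TMM-normalised CPM of the PCNA transcripts NM_182649 and NM_002592 per sample, and the right panel the percentage of PCNA expected counts assigned to NM_002592 (line, mean; bar, SD; n = 3 per group; axes from 0). NM_182649 goes from 268 to 560 CPM on average while NM_002592 goes from 8.97 to 11.1 CPM, and the share of NM_002592 goes from 3.23% to 1.94%.

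CDS2, which encodes an enzyme of phospholipid synthesis, starts 160 bases from the upstream start of PCNA on the opposite strand. It had 142 ± 2.72 CPM in control and 138 ± 6.28 CPM in 4HC (SD, n = 3), with overlapping groups and a log2 fold change of -0.04 (adjusted p = 0.478). Of this pair only PCNA was called. Whether counting used strand is not given in the sources used here. GENCODE also names 3 PCNA pseudogenes (PCNAP1, PCNAP3 and PCNAP4) and 1 each for RFC3, RFC5 and FEN1, between which and the genes reads could have been divided.

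Among the large subunits, ATAD5 had the largest log2 fold change. ATAD5 (NCBI Gene 79915, GENCODE span 30831970 to 30895869 of chromosome 17) had 31.7, 26.0 and 25.8 CPM in control and 39.8, 41.1 and 43.5 CPM in 4HC. One control sample stood above the other 2 but below every 4HC sample. The mean rose 1.49-fold, from 27.8 ± 3.37 to 41.5 ± 1.88 CPM (SD, n = 3), with a log2 fold change of 0.58 (SE 0.06, adjusted p = 1.88e-10).

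RFC1 (NCBI Gene 5981, chromosome 4, 39287456 to 39366381), the large subunit of the canonical loader, had 123, 121 and 131 CPM in control and 134, 144 and 146 CPM in 4HC. The highest control and the lowest 4HC sample were close, without overlap. Its log2 fold change was 0.18 (SE 0.04, adjusted p = 0.000475), a rise of 1.13-fold. CHTF18 (NCBI Gene 63922, chromosome 16, 788620 to 798074), whose complex loads PCNA and serves in sister chromatid cohesion, had 32.3, 28.7 and 30.2 CPM in control and 37.6, 37.1 and 33.0 CPM in 4HC. These groups were likewise close in CPM and overlapped in the deposited TPM. CHTF18 rose 1.18-fold, with a log2 fold change of 0.24 (SE 0.06, adjusted p = 0.00161).

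Since the 3 large subunits use the same small subunits, their shares of the summed TPM, a unit per transcript length, were compared. ATAD5 made up 11.1%, 9.44% and 9.36% of the large subunit TPM in control and 12.3%, 12.7% and 14.1% in 4HC. All 4HC samples were above all controls, with a difference of means of 3.08 percentage points (exact permutation test, two-sided, p = 0.1, the smallest possible). The share of RFC1 was 62.9% ± 2.27 in control and 59.5% ± 1.52 in 4HC (SD, n = 3; exact permutation p = 0.2), with overlapping groups. CHTF18 held 27.1% ± 1.33 and 27.5% ± 2.48 (exact permutation p = 0.9), also with overlap.

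**Figure D3:**
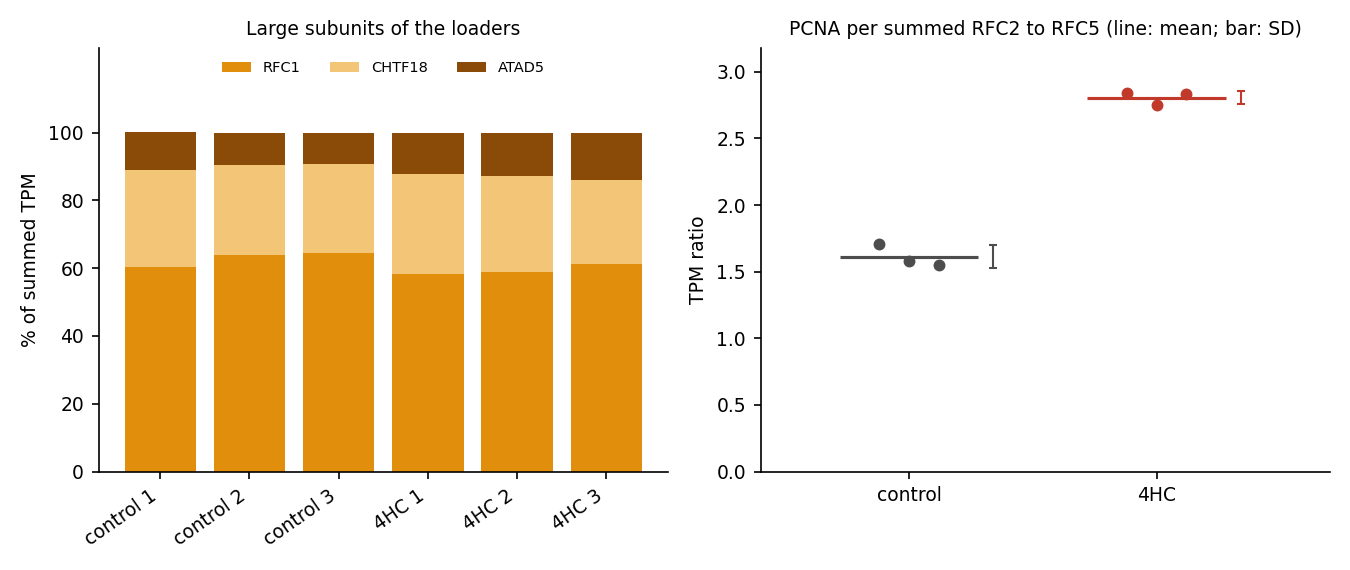
Left, stacked bars of the percentage of summed TPM taken by RFC1, CHTF18 and ATAD5 in each sample. Right, the TPM of PCNA divided by the summed TPM of RFC2 to RFC5 per sample (line, mean; bar, SD; n = 3; axis from 0). ATAD5 takes 9.36% to 11.1% in control and 12.3% to 14.1% in 4HC, and the PCNA ratio goes from 1.61 to 2.81 on average.

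The small subunits, the ATPase and scaffold subunits that all of these loaders share, moved by unequal amounts. RFC2 (NCBI Gene 5982, chromosome 7, 74231502 to 74254452) had 61.3, 64.7 and 66.1 CPM in control and 84.9, 85.7 and 84.3 CPM in 4HC, well separated. Its log2 fold change was 0.41 (SE 0.05, adjusted p = 1.79e-10). RFC5 (NCBI Gene 5985, chromosome 12, 118016661 to 118033564) had 53.7, 46.3 and 52.0 CPM in control and 62.6, 68.3 and 64.4 CPM in 4HC, again without overlap. RFC5 rose by a log2 fold change of 0.36 (SE 0.05, adjusted p = 1.49e-07).

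RFC3 and RFC4 had the smallest log2 fold changes of the small subunits. RFC3 (NCBI Gene 5983, chromosome 13, 33818075 to 33988620) had 87.6, 95.5 and 97.2 CPM in control and 104, 109 and 109 CPM in 4HC. Its groups were separate in CPM and overlapped in TPM, and its log2 fold change was 0.20 (SE 0.04, adjusted p = 0.000239). With limma on the deposited TPM or FPKM this call was lost (adjusted p between 0.0659 and 0.107). RFC4 (NCBI Gene 5984, chromosome 3, 186789900 to 186806482) had 47.3, 47.0 and 50.8 CPM in control and 49.8, 54.5 and 53.3 CPM in 4HC, so 1 control was above 1 treated sample. Its log2 fold change of 0.12 did not pass the test (SE 0.05, adjusted p = 0.0735). When control replicate 3 was left out it did pass (adjusted p = 0.0461), as it did when 4HC replicate 1 was left out (adjusted p = 0.0366) and with library size as the only scaling (adjusted p = 0.0337).

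PCNA had a larger log2 fold change than any subunit of its loaders. In TPM, PCNA was 1.71, 1.58 and 1.55 times the summed small subunits in control and 2.84, 2.75 and 2.83 times in 4HC, with no overlap (exact permutation test, two-sided, p = 0.1, the smallest possible). The summed TPM of RFC1, CHTF18 and ATAD5 was likewise divided by that of the small subunits. This ratio was 0.254 ± 0.0163 in control and 0.255 ± 0.000245 in 4HC (SD, n = 3), with overlapping groups (exact permutation p = 1). Among the controls this ratio ran from 0.243 to 0.273, and among the 4HC samples from 0.255 to 0.256.

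LIG1 had the largest change after PCNA. LIG1 (NCBI Gene 3978, chromosome 19, 48115445 to 48170595) had 75.7, 83.8 and 82.7 CPM in control and 133, 136 and 126 CPM in 4HC, far apart. The mean rose 1.63-fold, from 80.7 ± 4.40 to 132 ± 5.37 CPM (SD, n = 3), with a log2 fold change of 0.70 (SE 0.04, adjusted p = 2.85e-19). FEN1 (NCBI Gene 2237, chromosome 11, 61792911 to 61799270) had 117, 112 and 120 CPM in control and 153, 164 and 162 CPM in 4HC, also without overlap. It rose 1.37-fold, with a log2 fold change of 0.46 (SE 0.04, adjusted p = 5.93e-14).

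FEN1 and LIG1 act one after the other on each fragment. Their ratio was not a planned comparison and restates their unequal fold changes. FEN1 TPM per LIG1 TPM was 2.53, 2.20 and 2.39 in control and 1.89, 1.98 and 2.12 in 4HC, lower in every 4HC sample (exact permutation test, two-sided, p = 0.1, the smallest possible). TMEM258, which in GENCODE overlaps FEN1 on the opposite strand, was also called higher, from 46.3 ± 1.55 to 54.5 ± 1.41 CPM (log2 fold change 0.24, adjusted p = 0.000214). ZSWIM9, the neighbour of LIG1, was not called (log2 fold change 0.01, adjusted p = 0.949), nor was RPUSD1, which overlaps CHTF18 in GENCODE (-0.10, adjusted p = 0.189). The deposited spans of FEN1 and CHTF18 begin further in than those of GENCODE.

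**Figure D4:**
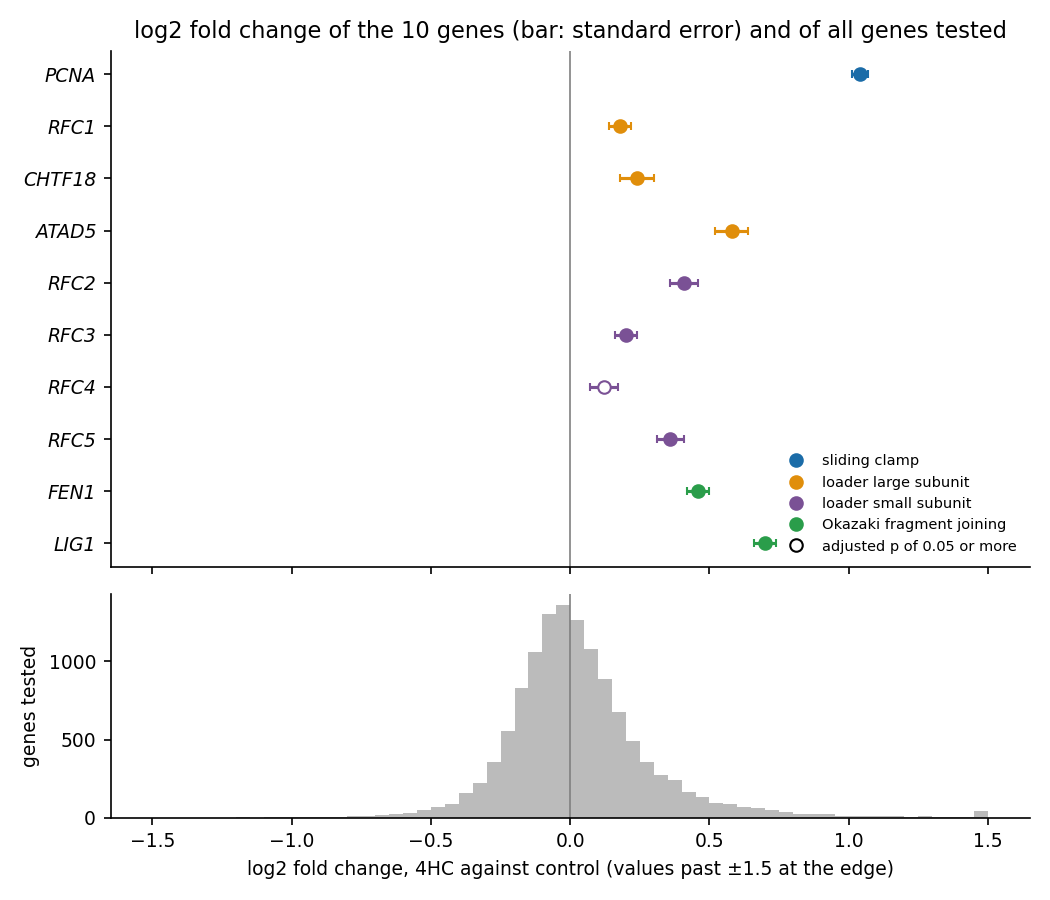
Top, log2 fold change of 4HC against control for each of the 10 genes with its standard error, coloured by role and open where the adjusted p was 0.05 or more. Bottom, the distribution of log2 fold changes over the 12368 genes tested, on the same axis, whose median is 0.00. All 10 estimates are above 0, from 0.12 for RFC4 to 1.04 for PCNA.

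On the per-length scale PCNA was by far the most abundant of the 10 genes in control, at 434 ± 11.9 TPM (SD, n = 3), followed by FEN1 at 105 ± 4.28 TPM. RFC3, RFC2 and RFC4 came next at 82.5, 73.5 and 73.1 TPM, and these neighbours overlapped in their ranges. LIG1, RFC1 and RFC5, at 44.5, 43.1 and 40.7 TPM, also overlapped with their neighbours. CHTF18 (18.6 TPM) and ATAD5 (6.82 TPM) were lowest. With 4HC, PCNA stood at 890 ± 7.91 TPM, and all neighbours in the order were separate. RFC2 (96.5 TPM) was then above RFC3 (90.5 TPM), and RFC5 (52.1 TPM) above RFC1 (48.2 TPM).

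At the transcript level the test had less power, with a biological coefficient of variation of 0.724 against 0.0277 for genes. The 10 genes had 55 transcripts, of which 44 were tested and 3 were called higher and none lower, against 0.706% and 0.587% of all transcripts tested. The 3 were NM_182649 of PCNA, NM_004111 of FEN1 and NM_000234 of LIG1. NM_004111, the sole FEN1 transcript, had a log2 fold change of 0.46 (adjusted p = 0.0131), and NM_000234 had 0.68 (adjusted p = 0.0288). NM_004111 fell short of the threshold in 5 of 6 fits that left out 1 sample (adjusted p up to 0.0865), and NM_000234 in 6 of 6 (up to 0.118). In the most abundant transcript of each gene the estimate was above 0 in 10 of 10, and all 4HC samples lay above all controls in 9 of 10, RFC1 being the exception. The share of all transcripts with such a separation was not computed. Of the 34 other tested transcripts of these genes, 0 were called and 29 had overlapping groups. Their estimates were above 0 in 19 and below 0 in 15. A second LIG1 transcript, NM_001320970, went from 18.8 ± 3.94 to 36.2 ± 3.27 CPM (log2 fold change 0.94, adjusted p = 0.0699) and did not pass.

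The promoters of the other genes were searched in the same way, and 10 windows of 9 genes were found, ATAD5 having no entry. Matches to TTTNNCGC were present in 5 of the 10 windows (PCNA upstream start, RFC1, RFC3, RFC5 and LIG1), and CCAAT in 5 (both PCNA starts, RFC1, RFC5 and CHTF18). The p53 half-site matched in 2, the downstream start of PCNA and RFC3, where it overlapped the E2F match. TTTGAA, the CHR element of many G2/M promoters, matched in none of the 10 and in 15.2% of all windows. The stretch of RFC1, at chr4:39366376-39366612 on the minus strand of GRCh38.p14, is shown as the promoter of the canonical large subunit, with CCAAT and the E2F match TTTAGCGC in capitals.
RFC1: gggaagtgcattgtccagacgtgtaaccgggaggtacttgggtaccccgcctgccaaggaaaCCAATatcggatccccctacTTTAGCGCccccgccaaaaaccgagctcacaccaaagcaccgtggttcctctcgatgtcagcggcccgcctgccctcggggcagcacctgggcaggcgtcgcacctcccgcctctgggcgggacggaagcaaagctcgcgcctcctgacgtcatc

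The genes that work beside PCNA were examined from lists, described by their counts. Without the 10 genes, 48 genes of 4 such lists were tested, of which 20 were called higher and 5 lower. Over all genes tested 19.2% were called higher and 17.1% lower. Of 13 genes listed for Okazaki fragment processing, 6 were higher and 3 lower, with a median log2 fold change of 0.11. LIG4, known for end joining rather than for Okazaki fragments, was on this list and among the lower. DNA2, a nuclease for long flaps, rose from 48.4 ± 2.27 to 73.7 ± 3.06 CPM (SD, n = 3; log2 fold change 0.61, adjusted p = 1.09e-14). RNASEH2A, the catalytic subunit of RNase H2, rose by 0.50, the exonuclease EXO1 by 0.47 and the polymerase delta subunit POLD3 by 0.39 on the log2 scale. The other DNA ligases went the opposite way from LIG1, LIG3 with a log2 fold change of -0.26 and LIG4 with -0.27, and RNASEH1 fell by 0.27.

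Other clamps and loader partners moved little. Of 7 tested, 2 were higher and none lower, with a median of 0.04. DSCC1, a partner of CHTF18, rose by 0.37 on the log2 scale (adjusted p = 9.6e-06). CHTF8, the other partner, was called at 0.16 (adjusted p = 0.0207) but not without control replicate 3 (0.381), 4HC replicate 2 (0.0588) or 4HC replicate 3 (0.267). RAD17, the loader of the checkpoint clamp, and the clamp genes RAD1, RAD9A, RAD9B and HUS1 were not called. Of 12 proteins that attach, remove or bind ubiquitin or SUMO marks of PCNA, 2 were higher and 1 lower, with a median of 0.01. Both counts were below the shares of all genes tested that were called higher (19.2%) and lower (17.1%). RAD18, the ubiquitin ligase for PCNA, went from 39.6 ± 1.63 to 47.5 ± 1.71 CPM (log2 fold change 0.26, adjusted p = 9.88e-05), and PARPBP rose by 0.28. USP10, at -0.16, lost its call without control replicate 3 (adjusted p = 0.0631).

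Among 17 other proteins that bind PCNA, 10 were higher and 1 lower (MSH6), with a median of 0.22. The shares over all genes tested were 19.2% higher and 17.1% lower. Of the genes named next, CDKN1A and POLH are also on the list of p53 targets described below. CDKN1A, or p21, which binds PCNA and inhibits cyclin-dependent kinases, rose 3.49-fold, from 225 ± 7.25 to 783 ± 18.0 CPM (SD, n = 3; log2 fold change 1.80, adjusted p = 2.56e-42). The TPM of PCNA per TPM of CDKN1A was 2.27 ± 0.12 in control and 1.34 ± 0.0469 in 4HC (exact permutation test, two-sided, p = 0.1, the smallest possible). CDT1, the licensing factor that is degraded on PCNA, rose by 0.97, POLH, the translesion polymerase eta, by 0.92 and the acetyltransferase ESCO2 by 0.73 on the log2 scale.

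**Figure D5:**
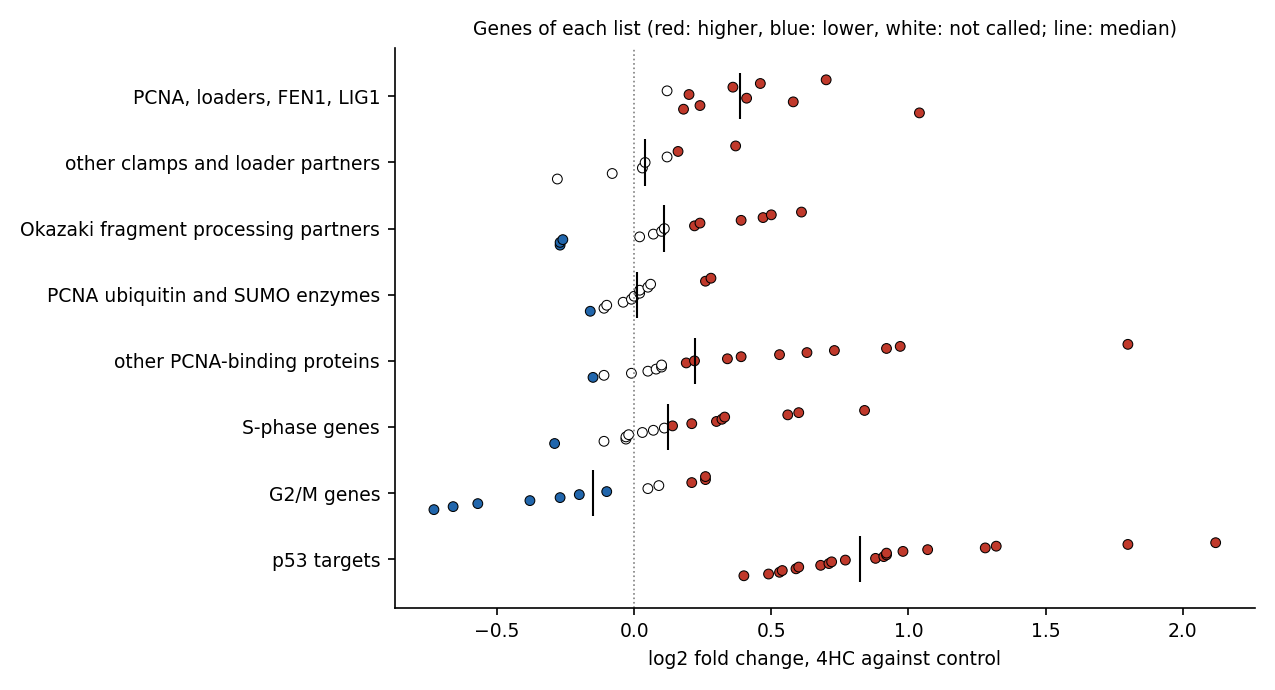
log2 fold change of 4HC against control (horizontal axis) for each tested gene of the 10 genes and of 7 lists, in red where called higher, blue where called lower and white where not called, with the median of each list as a line. The medians go from -0.15 for G2/M genes and 0.38 for the 10 genes to 0.83 for p53 targets, and a gene in more than 1 list is drawn in each.

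Some cell cycle genes and the p53 targets also differed between the groups, and their part in the results above was not tested. These lists were chosen with earlier results of these data known. Over all genes tested, 19.2% were called higher and 17.1% lower. Of 16 S-phase genes, 8 were higher and 1 lower, with a median of 0.13. RRM2, a subunit of ribonucleotide reductase, rose by 0.84, CCNE2 by 0.60 and TYMS by 0.56 on the log2 scale, whereas the helicase subunit MCM6 fell by 0.29. Of 12 G2/M genes, 3 were higher and 7 lower, with a median of -0.15. The largest changes were PLK1 at -0.73, CDC20 at -0.66 and CCNB1 at -0.57. The 3 higher were CDK1 (0.26), AURKB (0.26) and TOP2A (0.21). The summed level of the G2/M genes was 2388 to 2502 CPM in control and 2436 to 2510 CPM in 4HC, with overlap. The 20 p53 targets were all called higher, with a median of 0.83. Their summed level was 2576 to 2611 CPM in control and 4825 to 4888 CPM in 4HC, while that of the S-phase genes was 2119 to 2172 CPM in control and 2515 to 2562 CPM in 4HC.

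The 5 genes with the pattern most like that of PCNA were sought by the mean absolute difference in log2 CPM, relative to control, over the 6 samples. Among 10272 genes whose mean reached 5 CPM they were TP53INP1 (0.03), MDM2 (0.04), ACER2 (0.05), CDH24 (0.05) and EFNB1 (0.06). With 2 groups of close replicates, this measure mostly ranks genes by how near their log2 fold change is to that of PCNA. The 5 genes had log2 fold changes from 0.98 to 1.07, against 1.04 for PCNA. The next of the 10 genes on this measure, LIG1, was in place 107, followed by ATAD5 in place 268 and FEN1 in place 301, and RFC4 was last in place 2397.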

How the data were processed

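Total RNA of 6 samples (3 control, 3 4HC) was sequenced by a company, and the authors' reads were filtered with SOAPnuke. The submitters' processing notes name HISAT2, Bowtie2, RSEM 1.3.1, DESeq2 1.4.5 and GRCh38.p13, without roles. The authors deposited unnormalised expected counts for 16798 genes and 79213 transcripts, of which 85.5% of gene values were whole, and TPM and FPKM values scaled to length and depth. Deposited fold change, p-value and q-value columns of the authors' own comparison, and a second gene table with the same 27 columns, were not used. Expected counts were rounded and tested with edgeR 4.0.16 (TMM, filterByExpr, quasi-likelihood, condition as the only term, Benjamini-Hochberg adjustment) in R 4.3.3, and the procedure was tested on simulated data. The simulation gave transcripts the same low variation as genes. It therefore does not cover the transcript test, where the biological coefficient of variation was 0.724. Shares and ratios were compared with the exact permutation test. The ratios were not among the planned comparisons, and they restate differences between the fold changes of the genes in them.

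The members and gene lists were chosen with earlier results of these data known. Named were the 10 genes, CDKN1A, up to 4 genes per list with the largest absolute log2 fold change among those called, the 5 genes most like PCNA and transcripts of at least 1 CPM. Of the 39 such transcripts the text names the main ones. TP53I3, neighbouring genes, uncalled checkpoint clamp genes, MSH6, LIG3, LIG4, RNASEH1, MCM6, CDK1, AURKB and TOP2A were named after their values were seen. Promoters came from RefSeq (GRCh38.p14), and gene spans, except that of ATAD5, from the deposited data. The ATAD5 span, pseudogenes, neighbouring genes and transcript structure came from GENCODE release 29. AMHR2 was not analysed here. Alternatives were DESeq2 1.42.0, other scalings and filters, a replicate block, limma 3.58.1 on log2 TPM (pseudocount 1 or 0.1) or FPKM, the fold criterion and leaving out each sample. Python 3.11.15, pandas 2.3.3 and matplotlib 3.10.9 were used.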

Additional observations from a re-analysis of the deposited data

How the results depend on the processing

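Each gene result was recomputed under 15 alternatives that kept the threshold on the adjusted p. The calls of 8 of the 10 genes were kept in all of them, RFC3 and RFC4 being the exceptions described above. By the fold criterion (2-fold or more, unadjusted p under 0.05) 1 of the 10 genes, 1 transcript and 1 of the other pathway genes were higher and 0 of those pathway genes were lower. The number of transcripts called higher, 3, became 8 with DESeq2, 5 with library size only, 8 with at least 10 counts in every sample, 5 with limma on TPM with either pseudocount, and between 1 and 2 when 1 sample was left out. No pairing by replicate number was visible. Deviations of same-numbered samples correlated by 0.00866 to 0.0694 over genes and by -0.00243 to 0.0138 over transcripts. The labels do not say whether same-numbered samples were handled together. With the replicate number as a block, 0 transcripts were called and NM_182649 kept a log2 fold change of 1.06 (adjusted p = 0.0859), while the calls of the 10 genes were unchanged and that of CHTF8 was lost (adjusted p = 0.0826). The cause of these differences was not tested. CHTF8 was also not called with DESeq2 (adjusted p = 0.421) or limma (0.156 to 0.201).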
